A study of Homo sapiens with 12 samples.

Results

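Aminoacyl-tRNA synthetases load each transfer RNA with its amino acid, and 35 genes encoding them were followed here among the 62700 genes of the count table. The rule for membership used gene symbols, not measured values: 19 names that end in 1, together with FARSA and FARSB among them, stand for cytosolic enzymes, and 16 names that end in 2 stand for mitochondrial enzymes. The gene family itself was chosen with earlier results of these data known. All 35 genes passed the filter on low counts, so no member is missing from the tests. GARS1 and KARS1 are known to serve both compartments from a single gene, and they are counted as cytosolic here because of their names.

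Poly(A) RNA was sequenced from HCT116 TIM-mAID cells, a human colorectal cancer line in which a CRISPR knock-in placed the mAID degron tag on TIMELESS, a protein that protects replication forks. The 4 conditions, all sampled at 40 h, had 3 libraries each, numbered as sets 1 to 3: 5-Ph-IAA with ATRi (the combination), 5-Ph-IAA alone, ATRi alone, and DMSO, the solvent of both compounds. Each compound was given at 1 µM. The auxin analogue 5-Ph-IAA links a degron-tagged protein to a ubiquitin ligase, and ATRi stands for ceralasertib, which inhibits ATR, a kinase of the replication stress response. Every group carries the tagged allele, and whether the line is a single clone is not given in the sources used here. The libraries are described as biological replicates. In bulk RNA, fewer cells with a transcript and less of it per cell cannot be told apart.

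Cytosolic synthetases charge the transfer RNAs used by cytoplasmic ribosomes, and several of them sit in a multi-synthetase complex held together by scaffold proteins. Mitochondrial synthetases are encoded in the nucleus, imported, and serve only the ribosomes that translate the mitochondrial genome. Many cytosolic synthetase genes are known targets of ATF4, the transcription factor whose translation rises when eIF2α is phosphorylated and which drives genes for amino acid synthesis, uptake and charging. ATF4 acts with C/EBP partners at composite elements, for which TGATGNAA is a short form.

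Promoter sequences are shown because 5 of the 7 cytosolic genes that fell with the combination, AARS1 among them, carry this element in the window searched. RefSeq promoters of GRCh38.p14, from 250 bases before to 50 after the start, were found for 30 of the 35 genes; LARS1, VARS1, YARS1, AARS2 and VARS2 had no entry. TGATGNAA was searched on both strands as 8 letters, with the start base counted as position 1 and the base before it as position -1. A match stood in 7 of 16 cytosolic genes (43.8%) and in 1 of 14 mitochondrial genes (7.14%), where 3.62% of all 35116 promoters had one. The units differ: a gene was counted if any promoter listed for it matched, while the last share is per promoter. Each line gives 30 bases 5′ to 3′ on the gene's strand, with the match in capitals; it reads TTNCATCA where the element lies on the opposite strand.
AARS1: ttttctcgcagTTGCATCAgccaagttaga
CARS1: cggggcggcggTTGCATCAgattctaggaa
GARS1: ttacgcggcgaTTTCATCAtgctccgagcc
MARS1: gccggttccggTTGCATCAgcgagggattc
TARS1: gcgcctttcgaTTGCATCAgctggtccagc
IARS1: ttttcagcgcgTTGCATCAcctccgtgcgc
NARS1: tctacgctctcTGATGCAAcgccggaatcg
YARS2: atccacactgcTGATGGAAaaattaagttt

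These windows lie at chr16:70289675-70289704 on the minus strand for AARS1 (match at -187 to -180), at chr11:3057407-3057436 minus for CARS1 (-2 to 6), and at chr7:30594834-30594863 plus for GARS1 (-33 to -26). The others are chr12:57488053-57488082 plus for MARS1 (-4 to 4), chr5:33440956-33440985 plus for TARS1 (3 to 10), and chr9:92293692-92293721 minus for IARS1 (-13 to -6). NARS1 has its match at chr18:57621804-57621833 minus (15 to 22), and YARS2 at chr12:32756076-32756105 minus (-197 to -190). In CARS1, MARS1, TARS1 and NARS1 the match touches or follows the annotated start, whereas in AARS1 it lies well upstream. For GARS1 and TARS1, positions count from the start listed in the promoter table, which lies inside the RefSeq gene span given below, after its first base. The 250 bases before the AARS1 start, chr16:70289507-70289756 on the minus strand, give its wider context, with the match again in capitals.
AARS1 upstream: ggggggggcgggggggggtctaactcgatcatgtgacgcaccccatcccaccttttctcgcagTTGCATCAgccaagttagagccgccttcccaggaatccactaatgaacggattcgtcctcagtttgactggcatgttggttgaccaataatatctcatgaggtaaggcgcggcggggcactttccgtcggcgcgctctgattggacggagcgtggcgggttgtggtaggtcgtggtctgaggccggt

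A match in these letters is a description of sequence, and occupancy by any factor was not measured.

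The 12 libraries held 27.7 M to 34.7 M estimated counts (M, mega counts). Levels are given in CPM, counts per mega count of the library total, scaled by TMM factors. DMSO set 2 stood apart in its group, with 14.9% of counts from the mitochondrial genome against 7.85% and 6.63% in DMSO sets 1 and 3. ATF4 and its listed targets outside the synthetases summed to 2265, 2262 and 2365 CPM with the combination, 3531, 6825 and 2464 CPM with 5-Ph-IAA, 2903, 4177 and 2766 CPM with ATRi, and 5023, 7963 and 4069 CPM with DMSO, set 2 being the highest of the 3 in each group but the combination. All 5 epithelial markers were expressed, with 2 of 5 higher in the combination than in DMSO cells: KRT8 (1.35 ± 0.14 on the log2 scale, edgeR adjusted p = 0.000191) and KRT18 (1.04 ± 0.26, 0.0224), while EPCAM had -0.35 ± 0.18 (0.243), CDH1 0.06 and CDX2 0.17. Of 7 markers of other cell types, ALB (hepatocytes) reached 2.65 CPM in a combination library and did not pass (0.85 ± 0.70, adjusted p = 0.49). PTPRC, CD3E, PECAM1, COL1A2, COL3A1 and LUM, markers of leukocytes, endothelium and fibroblasts, were at most 0.2835 CPM. TIMELESS RNA was at 17.6, 24.5 and 24.5 CPM with the combination and 52.2, 30.5 and 67.9 CPM with DMSO, which checks nothing, since the degron acts on the protein.

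Before any comparison, the classes differed in abundance. Per kilobase of transcript, the 19 cytosolic genes in DMSO cells had a median of 72.3 CPM per kb, from 26.05 for FARSA, the catalytic subunit of the phenylalanine enzyme, to 145.6 for GARS1, the glycine enzyme. Mitochondrial genes had a median of 10.8 CPM per kb in DMSO cells, from 3.97 for PARS2 (proline) to 51.3 for IARS2 (isoleucine). Only IARS2 and RARS2 (arginine, 27.6 CPM per kb) exceeded the lowest cytosolic gene in DMSO cells. AARS1, the alanine enzyme, stood second in DMSO cells at 126.0 ± 31.1 CPM per kb (SD, n = 3), below GARS1 and above SARS1 at 114.7, NARS1 at 107.1 and MARS1 at 101.1. Adjacent genes in this order differed by less than the spread of AARS1. With the combination the cytosolic median was 51.0 CPM per kb and AARS1 lay at 35.02 ± 1.06 CPM per kb. Mitochondrial genes had a median of 8.54 CPM per kb with the combination.

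In cells given the combination, 7 of 19 cytosolic synthetases fell relative to DMSO and 0 rose, a share of 36.8% against 6.89% of all 18049 genes tested being lower. AARS1 fell most, by 3.60-fold, followed by YARS1, CARS1, GARS1, MARS1, TARS1 and LARS1. The median log2 change of the 19 genes was -0.44, with 14 of 19 below 0, against a median of -0.02 over all genes tested. Without DMSO set 2, 6 cytosolic genes fell. The absence of higher calls was less firm: FARSA was called higher with upper quartile scaling and with a stricter filter on low counts, FARSA and KARS1 with the DESeq2 test, and FARSA and RARS1 with the share of mitochondrial-genome counts as a covariate or the set number as a block. In 11 cytosolic genes all 3 combination libraries lay below all 3 DMSO libraries, and in 4 they lay above, while 15.9% of all genes lay wholly below and 16.4% wholly above. Here and below, adjusted p values come from edgeR's quasi-likelihood test (Benjamini-Hochberg over the 18049 genes), and 0.05 is the threshold.

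**Figure D1:**
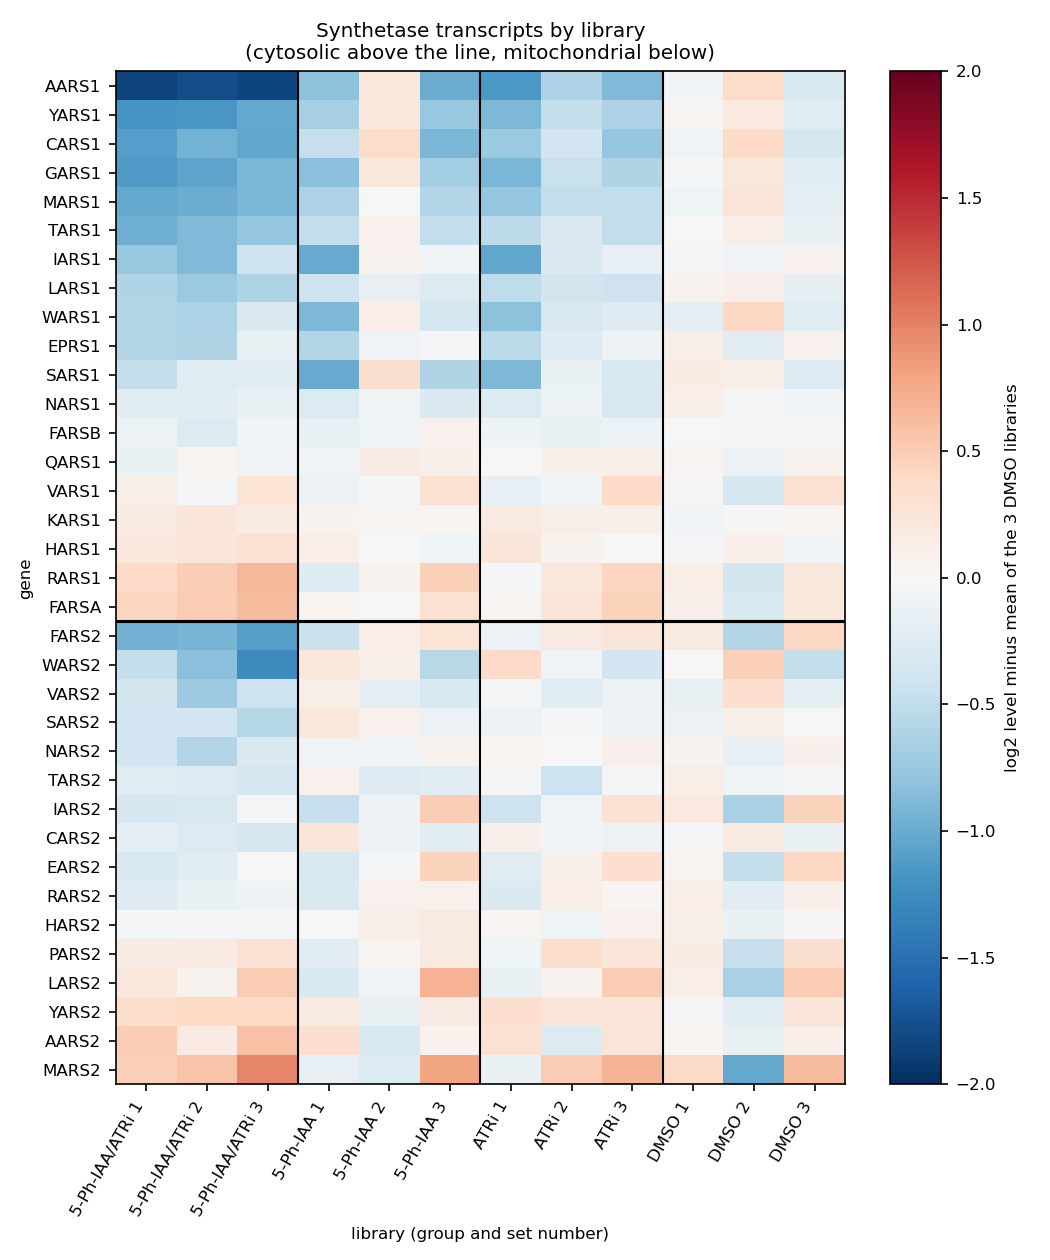
Level of each of the 35 genes in each of the 12 libraries, as log2 CPM minus the mean of the 3 DMSO libraries; cytosolic genes stand above the line and mitochondrial genes below it. AARS1 is the lowest row in the combination columns, and DMSO set 2 differs in sign from the other DMSO libraries for many mitochondrial genes.

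AARS1 (ENSG00000090861.17, chr16:70252298-70289506) had 119, 126 and 121 CPM with the combination, 243, 502 and 215 CPM with 5-Ph-IAA, 194, 279 and 232 CPM with ATRi, and 414, 556 and 344 CPM with DMSO. Its combination libraries were the 3 lowest of the 12 and close to each other, while 5-Ph-IAA set 2 reached into the DMSO range. The log2 change in the combination was -1.85 ± 0.30 (SE; edgeR adjusted p = 0.00256).
YARS1, the tyrosine enzyme (chr1:32775239-32817358), had 143, 144 and 159 CPM with the combination and 331, 371 and 273 CPM with DMSO, groups that did not overlap. It changed by -1.13 ± 0.24 on the log2 scale (edgeR adjusted p = 0.0103). MARS1, which charges both initiator and elongator methionine transfer RNA (chr12:57488068-57516652), had 143, 147 and 155 CPM with the combination and 276, 348 and 258 CPM with DMSO, a log2 change of -0.99 ± 0.18 (edgeR adjusted p = 0.00492). The combination libraries of both genes lay within a narrow band below every DMSO library.

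GARS1 (chr7:30594735-30634033) had 174, 183 and 202 CPM with the combination and 376, 446 and 329 CPM with DMSO, and changed by -1.04 ± 0.25 (SE, log2; edgeR adjusted p = 0.0198). CARS1, the cysteine enzyme (chr11:3000929-3057423), had 87.2, 97.6 and 91.2 CPM with the combination and 179, 248 and 148 CPM with DMSO, and changed by -1.06 ± 0.29 (edgeR adjusted p = 0.0341). Both genes were lower in every combination library than in any DMSO library, but their calls were the least stable of the 7. GARS1 missed the threshold without any 1 of the combination libraries (adjusted p = 0.0781, 0.0732 and 0.0543 without sets 1, 2 and 3) and without DMSO set 1 (0.0573). CARS1 missed it without any 1 of the combination libraries (0.112, 0.0902 and 0.102), without DMSO set 1 (0.0757) and without DMSO set 2 (0.0934).

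TARS1, the threonine enzyme (chr5:33440696-33468091), had 179.7, 192 and 207 CPM with the combination and 353, 389 and 323 CPM with DMSO, a log2 change of -0.88 ± 0.17 (edgeR adjusted p = 0.0057). LARS1, the leucine enzyme and a member of the multi-synthetase complex (chr5:146113034-146182650), had 157, 141 and 154 CPM with the combination and 249, 254 and 209.9 CPM with DMSO, a log2 change of -0.66 ± 0.12 (edgeR adjusted p = 0.00418). Groups did not overlap in either gene. AARS1, LARS1, MARS1, TARS1 and YARS1 passed the threshold without any single library of either group. MARS1 overlaps DDIT3, YARS1 overlaps S100PBP and CARS1 overlaps CARS1-AS1 in RefSeq, and since the strand setting of the counting is not given, reads of the overlapping stretches cannot be assigned with certainty; DDIT3 itself was at 34.7, 46.1 and 33.2 CPM with the combination and 50.2, 268 and 28.3 CPM with DMSO.

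**Figure D2:**
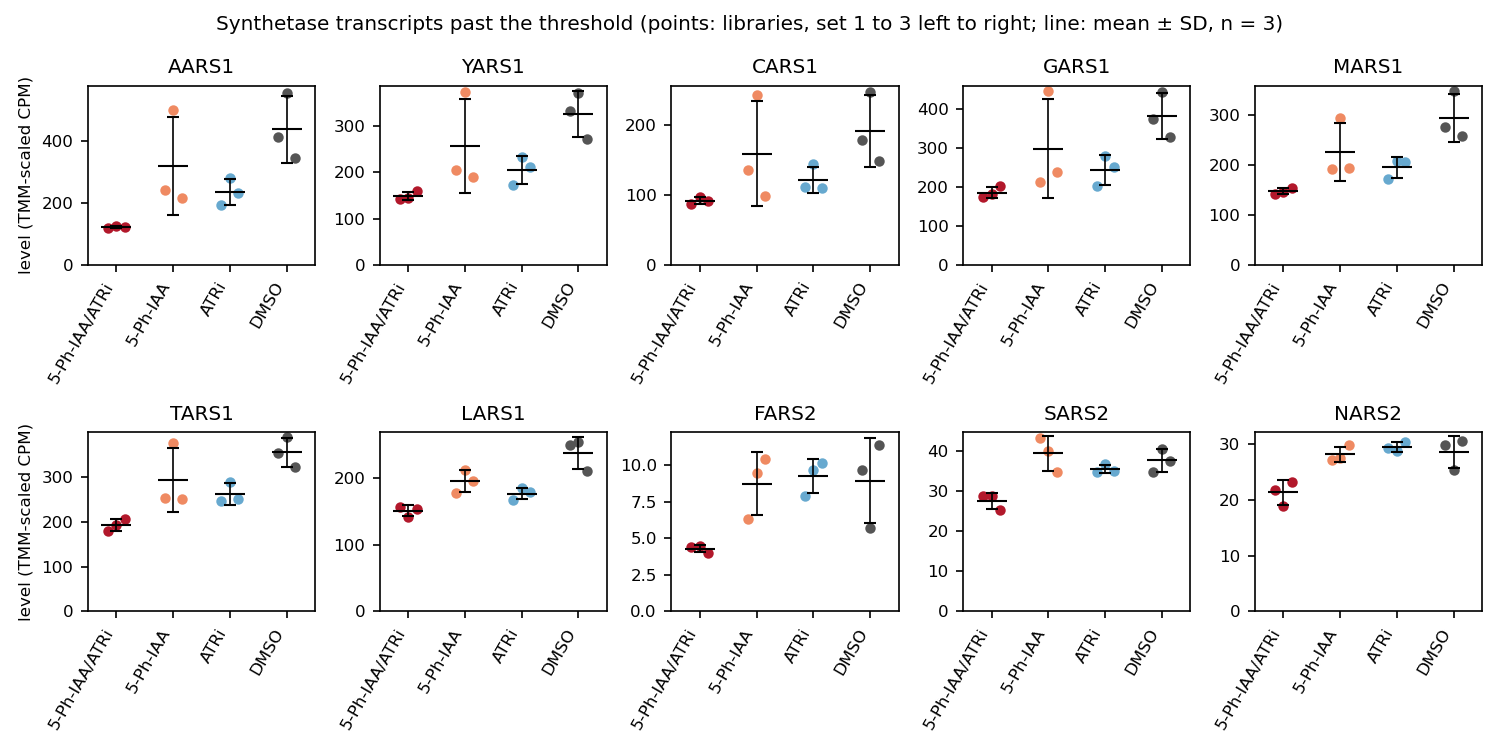
TMM-scaled CPM in each library for the 10 genes that passed the threshold between the combination and DMSO; points are libraries, bars are the mean ± SD of 3. The combination points of the 7 cytosolic genes sit below all DMSO points, from 119 to 126 CPM against 344 to 556 CPM for AARS1.

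The other 12 cytosolic genes did not pass, and their values ran in both directions. IARS1, the isoleucine enzyme, had 263, 242 and 335 CPM with the combination and 438, 429 and 472 CPM with DMSO (log2 change -0.67 ± 0.28, edgeR adjusted p = 0.148). WARS1, the tryptophan enzyme, had 78.5, 75.6 and 95.9 CPM with the combination and 104, 157 and 99.4 CPM with DMSO (-0.53 ± 0.26, adjusted p = 0.228). Both were below every DMSO library, WARS1 by a small margin to DMSO set 3.
In the opposite direction, FARSA had 62.8, 66.8 and 72.2 CPM with the combination and 49.9, 37.7 and 54.2 CPM with DMSO (0.51 ± 0.16, edgeR adjusted p = 0.0576). RARS1, the arginine enzyme, had 173, 187 and 210 CPM with the combination and 147, 104 and 155 CPM with DMSO (0.49 ± 0.21, adjusted p = 0.154). FARSA, RARS1, KARS1 (lysine) and HARS1 (histidine) were the 4 genes whose combination libraries lay above all DMSO libraries. FARSB, the partner subunit of FARSA, had a log2 change of -0.14 with an adjusted p of 0.42, so the paired subunits differed in the sign of their change.
QARS1 (glutamine) had -0.05, VARS1 (valine) 0.10 and NARS1 (asparagine) -0.19. SARS1 (serine) had -0.32 and EPRS1, which joins the glutamate and proline enzymes in a single protein, had -0.44 ± 0.19 with an adjusted p of 0.167.

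**Figure D3:**
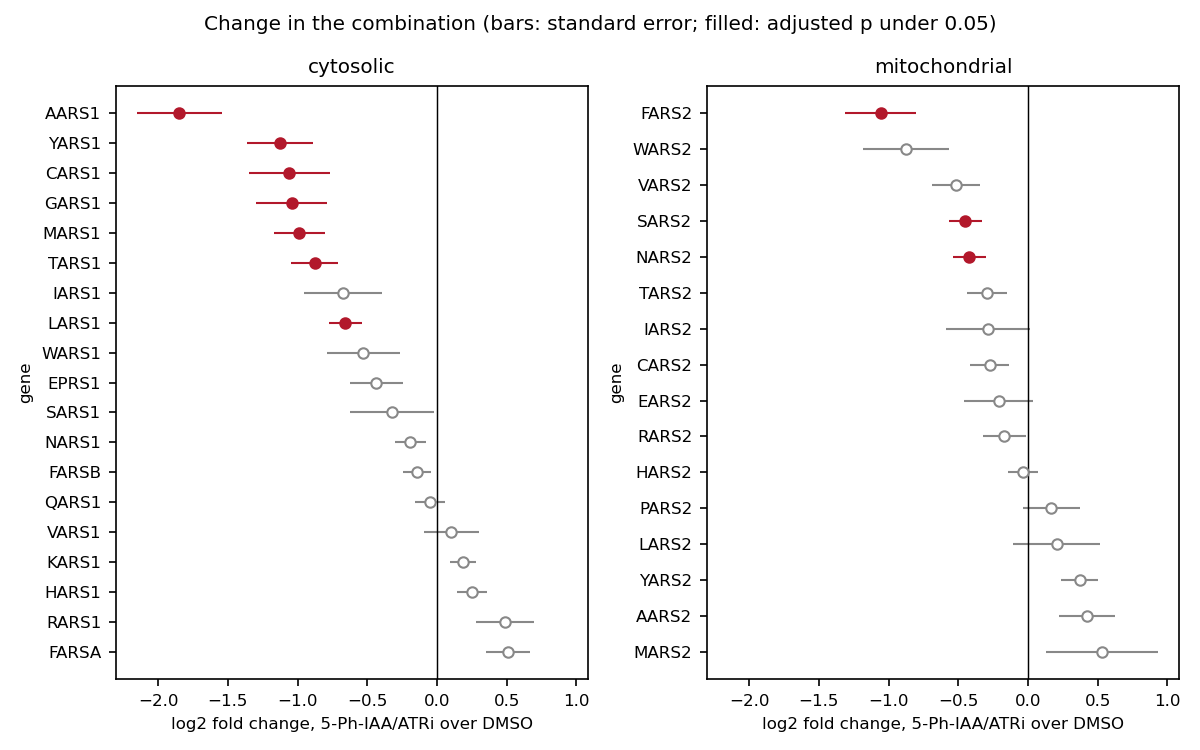
Log2 change of each gene between the combination and DMSO, with the standard error as a bar; filled points passed an adjusted p of 0.05. The 10 filled points all lie left of 0, from -1.85 for AARS1 to -0.42 for NARS2.

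Listed as known ATF4 targets are 11 cytosolic synthetases: AARS1, CARS1, EPRS1, GARS1, IARS1, MARS1, NARS1, SARS1, TARS1, WARS1 and YARS1. The list was chosen with earlier results of these data known, so the shares inside and outside it are no independent test. Of the 11 genes, 6 fell (54.5%), all 11 had a negative log2 change, with a median of -0.88, and 9 lay wholly below DMSO, against 6.89% of all genes lower and 15.9% wholly below. Of the 8 cytosolic genes outside the list, 1 fell, LARS1 (12.5%), 5 had a positive change, the median was 0.14, and 4 lay wholly above DMSO, as did 16.4% of all genes. Without DMSO set 2 the number that fell among the 11 was 5, and without any 1 of the combination libraries or DMSO set 1 it was 4. With the 8 libraries left after removing the highest mitochondrial-genome share of each group, it was 2, beside 1 of the 8 genes outside the list. All 11 stayed negative in each of these fits.
Summed over the 11 listed genes, the level was 1846 to 2157 CPM with the combination and 3099 to 3790 CPM with DMSO. Summed over the 8 other genes, it was 1254 to 1345 CPM with the combination and 1175 to 1313 CPM with DMSO, ranges that overlap. Of the 7 listed enzymes of the multi-synthetase complex, 2 fell (28.6%, median -0.44), as did 5 of the 12 cytosolic genes outside it (41.7%, median -0.43), with 6.89% of all genes lower. Among genes with a promoter entry, the TGATGNAA element was present in all 5 cytosolic genes that fell and in 2 of 11 that did not pass (IARS1 and NARS1). It was present in 0 of the 3 mitochondrial genes that fell. Among ATF4 and its listed targets outside the synthetases, it was present in 5 of 22 genes with an entry (22.7%). FARSA, RARS1, KARS1 and HARS1, whose combination libraries were higher, had no match in this window. EPRS1, FARSB, QARS1, SARS1 and WARS1, which had negative changes, had no match either. Of these, EPRS1, SARS1 and WARS1 are on the ATF4 target list.

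Among mitochondrial synthetases, 3 of 16 fell with the combination relative to DMSO and 0 rose, a share of 18.8% against 6.89% of all genes tested being lower. FARS2 had the largest change, 2.08-fold lower, and SARS2 and NARS2 changed less than 1.5-fold. The median log2 change was -0.24, with 11 of 16 below 0; 6 genes lay wholly below DMSO, 2 wholly above and 8 overlapped, against 15.9% and 16.4% of all genes below and above. These calls rested on few libraries: leaving out any 1 combination library, or DMSO set 1, left 0 of 16 past the threshold in edgeR. Without DMSO set 3 none of the 3 calls was kept and YARS2 alone passed, as higher. YARS2 was also called higher with the DESeq2 test, the block and the covariate, AARS2 with the block, and LARS2, MARS2 and PARS2 with the covariate.

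FARS2, the mitochondrial phenylalanine enzyme (chr6:5249934-5771583), had 4.40, 4.51 and 4.01 CPM with the combination, 6.36, 9.47 and 10.4 CPM with 5-Ph-IAA, 7.93, 9.71 and 10.2 CPM with ATRi, and 9.71, 5.75 and 11.4 CPM with DMSO. The combination was the lowest group, and its libraries did not overlap with those of any other group. The log2 change against DMSO was -1.06 ± 0.26 (SE; edgeR adjusted p = 0.0196). It was -1.30 without DMSO set 2, the lowest DMSO library (adjusted p = 0.00304), and missed the threshold without combination sets 1, 2 or 3 (0.0641, 0.0612 and 0.078), DMSO set 1 (0.071) or DMSO set 3 (0.0681). Both FARS2-AS1 and LYRM4 overlap it in RefSeq.
SARS2, the mitochondrial serine enzyme (chr19:38915266-38930763), had 28.8, 28.9 and 25.3 CPM with the combination, 43.4, 40.1 and 34.9 CPM with 5-Ph-IAA, 34.8, 36.7 and 35.04 CPM with ATRi, and 34.9, 40.7 and 37.6 CPM with DMSO. Its change against DMSO was -0.45 ± 0.12 on the log2 scale (edgeR adjusted p = 0.0279), and removing any 1 of the 6 libraries compared left it short of the threshold (adjusted p 0.0504 to 0.113). NARS2, the mitochondrial asparagine enzyme (chr11:78435968-78574864, overlapped by NARS2-AS1), had 21.8, 18.9 and 23.2 CPM with the combination and 29.9, 25.3 and 30.5 CPM with DMSO. It changed by -0.42 ± 0.12 (edgeR adjusted p = 0.0384), and the call held without DMSO set 2 (0.0209) but was lost without combination sets 1, 2 or 3 (0.1, 0.15 and 0.0596), DMSO set 1 (0.13) or DMSO set 3 (0.109). In all 3 genes the combination libraries lay below every library of the other 3 groups.

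WARS2, the mitochondrial tryptophan enzyme, had 9.84, 7.67 and 5.72 CPM with the combination and 13.6, 19.1 and 9.84 CPM with DMSO (-0.87 ± 0.31, edgeR adjusted p = 0.0888). VARS2, the valine enzyme, had 38.4, 29.9 and 36.9 CPM with the combination and 44.4, 62.5 and 43.5 CPM with DMSO (-0.52 ± 0.17, adjusted p = 0.073), and its estimated counts were not whole in any library, as when reads are divided among similar transcripts. Neither gene passed the threshold, and highest in DMSO for both was set 2. On the other side of 0, YARS2 had 41.3, 42.7 and 42.8 CPM with the combination and 31.8, 28.03 and 38.2 CPM with DMSO (0.37 ± 0.13, adjusted p = 0.0937), and AARS2 had 0.42 ± 0.20 (adjusted p = 0.201). YARS2 and AARS2, for tyrosine and alanine, were higher in every combination library than in any DMSO library, and their cytosolic counterparts YARS1 and AARS1 fell. These were 2 of 16 mitochondrial genes, where 16.4% of all genes lay wholly above, and neither passed at the adjusted p just given.

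Among the DMSO libraries, the median log2 range was 0.48 for mitochondrial genes, 0.41 for cytosolic genes and 0.60 for all genes tested. DMSO set 2 was the lowest of the 3 DMSO libraries for 12 of 16 mitochondrial genes and the highest for 9 and the lowest for 7 of 19 cytosolic genes. MARS2 (methionine) had 18.1, 19.3 and 25.5 CPM with the combination and 16.9, 6.38 and 20.2 CPM with DMSO, and LARS2 (leucine) had 32.7, 29.5 and 39.7 CPM with the combination and 30.7, 17.8 and 39.7 CPM with DMSO. IARS2 had 138, 139.7 and 172 CPM with the combination and 200, 111 and 237 CPM with DMSO. In each of these 3 genes the spread between DMSO libraries, 1.66, 1.15 and 1.09 on the log2 scale, exceeded the difference between the groups, and LARS2 changed sign without DMSO set 2 (-0.06). The share of counts from the mitochondrial genome was 13.9%, 12% and 10.7% with the combination and 7.85%, 14.9% and 6.63% with DMSO.
Combination libraries were closer to each other: the log2 range over 3 libraries was narrower than in DMSO for 16 of 19 cytosolic and 14 of 16 mitochondrial genes, against 71.5% of all genes tested. Over all genes tested the median range was 0.37 with the combination and 0.60 with DMSO, so the narrowing is not read as particular to the synthetases. For AARS1 the range was 0.09 with the combination and 0.69 with DMSO.

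Both classes together gave a ratio of summed cytosolic to summed mitochondrial synthetase RNA. The cytosolic sum was 3100, 3156 and 3501 CPM with the combination, 3281, 4981 and 3788 CPM with 5-Ph-IAA, 3196, 3920 and 3851 CPM with ATRi, and 4708, 4964 and 4412 CPM with DMSO. The mitochondrial sum was 551.5, 536.9 and 603.9 CPM with the combination, 574.5, 595.9 and 725.8 CPM with 5-Ph-IAA, 575.5, 612.7 and 696.6 CPM with ATRi, and 659.3, 528.7 and 719.8 CPM with DMSO. Cytosolic sums of the combination and of ATRi lay below all DMSO sums, while mitochondrial sums overlapped between the combination and DMSO. Their ratio was 5.62, 5.88 and 5.80 with the combination, 5.71, 8.36 and 5.22 with 5-Ph-IAA, 5.55, 6.40 and 5.53 with ATRi, and 7.14, 9.39 and 6.13 with DMSO.

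**Figure D4:**
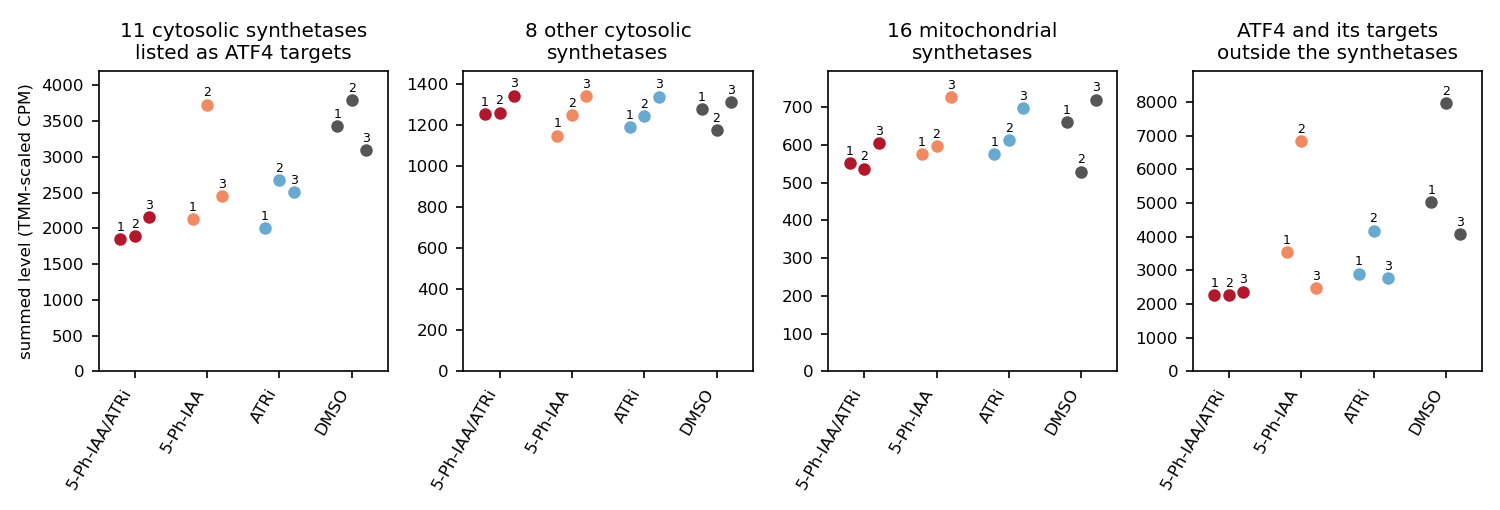
Summed CPM per library of the 11 cytosolic synthetases listed as ATF4 targets, the 8 other cytosolic synthetases, the 16 mitochondrial synthetases, and ATF4 with its other listed targets; numbers mark the set. In the first panel the combination lies at 1846 to 2157 CPM and DMSO at 3099 to 3790 CPM, and in the second panel the ranges overlap.

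For the 13 amino acids that have a listed gene in each class, the ratio of the cytosolic to the mitochondrial gene compares both within a library. Between the combination and DMSO, this ratio was wholly lower for 7 amino acids, wholly higher for 4 (histidine, asparagine, arginine and valine) and overlapped for serine and tryptophan. No share over other gene pairs was computed. Of single genes, 15.9% lay wholly below and 16.4% wholly above in this comparison. AARS1 over AARS2 had log2 ratios of 2.06, 2.48 and 1.99 with the combination and 4.31, 4.93 and 3.98 with DMSO, a mean difference of -2.24. YARS1 over YARS2 had 1.79, 1.75 and 1.90 with the combination and 3.38, 3.73 and 2.83 with DMSO, a mean difference of -1.50. The other differences in this direction were -1.65 for methionine, -0.93 for leucine, -0.76 for cysteine, -0.59 for threonine and -0.46 for isoleucine, and the largest opposite one was 0.67 for arginine. Each separated pair had a 2-sided exact permutation p of 0.1, the smallest that 3 against 3 libraries allow, so none can pass 0.05. With ATRi against DMSO the ratio was wholly lower for 2 of 13 amino acids, cysteine and tyrosine, and overlapped for 11. With 5-Ph-IAA it overlapped for all 13.

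5-Ph-IAA alone gave 0 of 35 synthetases past the threshold against DMSO, as did DESeq2 and limma-voom, with 1 gene, LARS1, at an unadjusted p under 0.05 in edgeR. Over all 18049 genes tested, 0.00554% were called, and 239 genes stood at an unadjusted p under 0.05. The cytosolic median log2 change was -0.26, with 13 of 19 below 0, and the mitochondrial median was -0.02. AARS1 had -0.45 ± 0.29, and 17 of 19 cytosolic and 16 of 16 mitochondrial genes overlapped between the groups; NARS1 lay wholly below DMSO and KARS1 wholly above, as did 1.38% and 1.99% of all genes. Much of the spread came from set 2, where AARS1 was 502 CPM against 243 and 215 CPM in sets 1 and 3; without that library the count was still 0.

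ATRi alone also gave 0 of 35 past the threshold in edgeR and limma-voom, and 1, LARS1, in DESeq2, while 0.0665% of all genes were called in edgeR. At an unadjusted p under 0.05 stood 7 cytosolic genes (AARS1, CARS1, GARS1, LARS1, MARS1, TARS1 and YARS1) and 0 mitochondrial genes. The same level was reached by 877 of all 18049 genes tested. AARS1 had a log2 change of -0.90 ± 0.29 (edgeR adjusted p = 0.716), YARS1 -0.66 ± 0.24 (0.82), MARS1 -0.59 ± 0.18 (0.607) and LARS1 -0.43 ± 0.12 (0.508). Of the cytosolic genes, 11 of 19 lay wholly below DMSO and 1, KARS1, wholly above, against 4.07% and 4.73% of all genes, and the class median was -0.43. All 16 mitochondrial genes overlapped with DMSO and their median was 0.03. ATRi and the combination share the DMSO libraries, so their values against DMSO are not independent of each other.

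**Figure D5:**
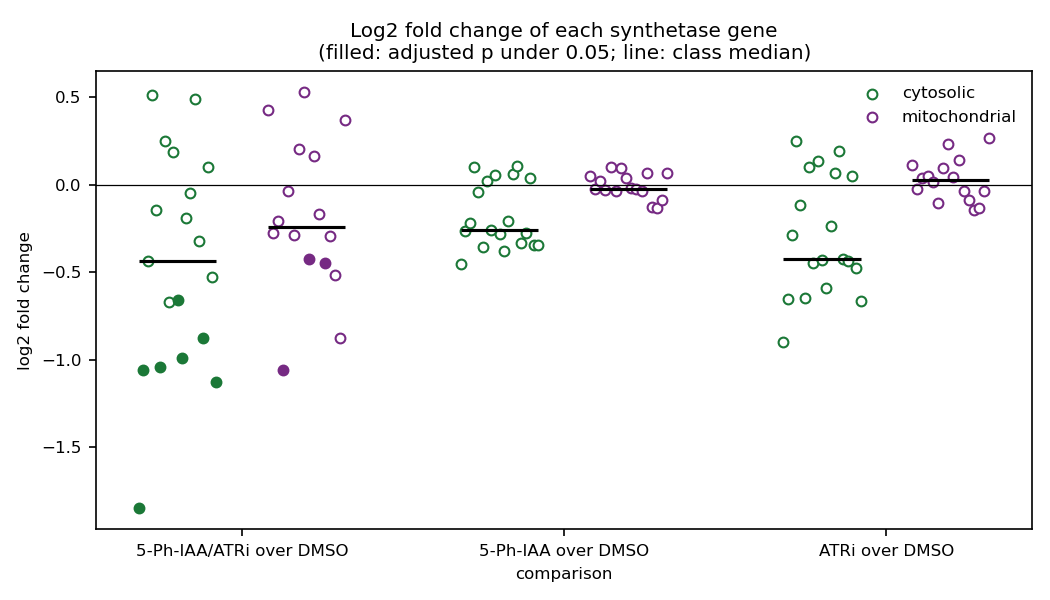
Log2 change against DMSO of each cytosolic and mitochondrial synthetase with the combination, with 5-Ph-IAA and with ATRi; short lines are class medians. Cytosolic medians are -0.44, -0.26 and -0.43, and mitochondrial medians are -0.24, -0.02 and 0.03.

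Set against 5-Ph-IAA alone, 2 cytosolic genes and 2 mitochondrial genes fell with the combination, 10.5% and 12.5% of their classes, while 9.41% of all genes passed, 5.04% lower and 4.38% higher. AARS1 changed by -1.39 ± 0.30 (edgeR adjusted p = 0.0143) and TARS1 by -0.60 ± 0.17 (0.0435). FARS2 changed by -1.03 ± 0.26 (0.029) and SARS2 by -0.51 ± 0.12 (0.0196). MARS1, NARS2 and YARS1 narrowly missed the threshold, at adjusted p of 0.0584, 0.059 and 0.0633. For these groups each same-numbered pair of libraries deviated together (correlations of 0.344, 0.166 and 0.51 for sets 1, 2 and 3). With the set number as a block, 7 cytosolic genes fell (AARS1, CARS1, GARS1, LARS1, MARS1, TARS1 and YARS1) and FARSA rose, and 4 mitochondrial genes fell (FARS2, NARS2, SARS2 and WARS2) and AARS2 rose. The 9.41% of all genes belongs to the fit without the block and is no background for these blocked counts. Without the block, each of the 4 calls was lost without any 1 of the combination libraries (for AARS1, the highest adjusted p was 0.0608). TARS1, FARS2 and SARS2 were also lost without 5-Ph-IAA set 2, FARS2 without 5-Ph-IAA set 3, and SARS2 without 5-Ph-IAA set 1.

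Set against ATRi alone, 0 cytosolic genes passed in edgeR and limma-voom and 1, AARS1, in DESeq2, with 3 at an unadjusted p under 0.05. Over all genes, 3.51% passed, 1.88% lower and 1.63% higher. An unadjusted p under 0.05 was reached by 2982 of all 18049 genes tested, and the cytosolic share was not above this. AARS1 had a log2 change of -0.95 ± 0.30 (edgeR adjusted p = 0.112). FARS2 was the only mitochondrial gene that fell, by 1.11 ± 0.26 on the log2 scale (adjusted p = 0.0395). It missed the threshold without any 1 of the 6 libraries compared, with adjusted p up to 0.158. NARS2 had -0.47 ± 0.12 (0.0574).

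The interaction is the log2 change with both compounds minus the sum of the changes with each alone. No synthetase passed it in edgeR, DESeq2 or limma-voom, where edgeR called 0.0776% of all genes, 0.0111% as higher. FARS2 (-1.07 ± 0.36, edgeR adjusted p = 0.483), NARS2 (-0.44 ± 0.17, 0.574) and SARS2 (-0.43 ± 0.17, 0.592) were the 3 mitochondrial genes at an unadjusted p under 0.05. That level was reached by 1317 of all 18049 genes tested. Among cytosolic genes 0 reached that level: AARS1 had -0.50 ± 0.41 (0.99), and the class median was 0.01, against -0.15 for the mitochondrial class.

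ATF4 and its listed targets outside the synthetases form a longer list: 12 of its 26 tested genes fell against DMSO (46.2%, with 6.89% of all genes lower), 25 had a negative change and the median was -1.20. This list too was chosen with earlier results of these data known. ASNS, asparagine synthetase, had 105, 91.2 and 87.5 CPM with the combination and 632, 846 and 333 CPM with DMSO, a log2 change of -2.67 ± 0.51 (edgeR adjusted p = 0.00592). PHGDH, the entry enzyme of serine synthesis, changed by -2.65 ± 0.30 (0.000325), SLC7A11, the cystine transporter, by -2.48 ± 0.46 (0.00491), TRIB3, a pseudokinase that restrains ATF4, by -2.28 ± 0.63 (0.0359), and MTHFD2, a mitochondrial folate enzyme, by -1.14 ± 0.21 (0.00476).
ATF4 mRNA itself did not pass, at 393, 456 and 344 CPM with the combination and 682, 1165 and 591 CPM with DMSO (-1.03 ± 0.33, adjusted p = 0.0652). CHAC1, which degrades glutathione, and DDIT3 did not pass either (-2.91 ± 0.95 and -1.60 ± 1.02). The number that fell was 7, 6 and 8 without combination sets 1, 2 and 3, 4 with the 8 libraries left after removing the highest mitochondrial-genome share of each group, and 8, with 1 that rose and a median of -0.70, without DMSO set 2. With ATRi and with 5-Ph-IAA alone, all 26 had a negative change, with medians of -0.79 and -0.34, and 0 passed in edgeR. Of all 18049 genes tested, 9565 and 9592 had a negative change. With 5-Ph-IAA all 26 overlapped DMSO, and with ATRi 9 lay wholly below it, as did 4.07% of all genes. Both comparisons share the DMSO libraries, of which set 2 had the highest sum of these genes. ATF3 alone in the list had a positive change in the combination. Its levels were 77.3, 72.3 and 86.2 CPM there and 19.8, 56.1 and 18 CPM with DMSO.

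Genes that work beside the synthetases mostly did not pass between the combination and DMSO. In a list of 3 genes for tRNA export, XPOT, RAN and NXT1, 1 fell, with 6.89% of all genes lower. This was XPOT, the export receptor for transfer RNA, which is also among the 12 ATF4-list genes that fell. XPOT had 127, 122 and 141 CPM with the combination and 205, 293 and 209 CPM with DMSO (-0.86 ± 0.21, edgeR adjusted p = 0.0197). Of the 3 scaffold proteins of the multi-synthetase complex, AIMP2 rose (0.37 ± 0.10, adjusted p = 0.0301), while AIMP1 had 0.08 and EEF1E1 -0.17. AIMP2 thus moved opposite to LARS1 and MARS1, enzymes of the same complex. Of its 7 listed enzymes, 5 had a negative change. The other 2, RARS1 and KARS1, had a positive change, as AIMP2 did, but did not pass. By the same test, 0 of 4 factors that deliver charged transfer RNA to the cytosolic ribosome, 0 of 3 trans-editing enzymes, 0 of 7 mitochondrial translation factors and 0 of 4 genes for mitochondrial amidation and formylation passed; in the last list GATC had 0.32 with an adjusted p of 0.0724. Of 4 eIF2α kinases 0 passed, EIF2AK1 coming nearest at -0.33 (0.0587). Of 78 mitochondrial ribosomal protein genes 6 rose and 0 fell (7.69%, with 6.24% of all genes higher, and a median of 0.11), and the 13 mitochondrial-genome mRNAs all had a positive change, with a median of 0.44 and libraries that overlapped between the groups.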

How the data were processed

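RNA was isolated with the miRNeasy Micro Kit and a DNase step, and poly(A) libraries were made with the NEBNext Ultra II Directional kit, per the labels' protocols. The authors deposited estimated counts per gene for 12 libraries; the submitters' processing notes name Salmon 1.10.1, STAR 2.7.9a, cutadapt 3.4, SAMtools 1.17, Trim Galore 0.6.7, FastQC 0.12.1 and build GRCh38.p14. For the annotation release and the strand setting, nothing is given in the sources used here. Among estimated counts, 6.93% lay more than 0.01 from a whole number; all were rounded.

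Counts were filtered with filterByExpr (minimum count 10, total 15), which kept 18049 genes and at least 99.89% of counts per library, scaled by TMM and tested with edgeR 4.0.16 (limma 3.58.1, R 4.3.3) by the quasi-likelihood F test in a single model of 4 group means. P values were adjusted by Benjamini-Hochberg across the 18049 genes, and 0.05 was the threshold. The 6 contrasts were the combination, 5-Ph-IAA and ATRi against DMSO, the combination against each compound, and the interaction. Levels are TMM-scaled CPM computed from the deposited counts. Levels per kilobase use 1 transcript length per gene, that of the principal isoform in GENCODE v29. Gene positions and promoters are from RefSeq, GRCh38.p14, with all 35 positions matched by symbol. The procedure was tested on simulated data. Replicates of a group differed beyond sampling noise (chi-square per gene 16.4 to 241), more than repeat sequencing of a single library would give. This value cannot tell whether they came from separate cultures, and the tests treated each library as separate.

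The labels do not say that a set number marks a shared culture or day. Same-numbered libraries deviated together (correlation over 0.1) in 13 of 18 pairs, with a range of -0.086 to 0.722; all 3 pairs did so for the combination against 5-Ph-IAA, whose blocked fit is given beside that result, and not all 3 for the other contrasts reported.

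Members and lists were chosen with earlier results of these data known. Values per library are given for members past the threshold in any contrast, for the 3 of each class with the largest change in the combination against DMSO, and for the 3 with the largest range among DMSO libraries; other members are added where a contrast in direction is described, chosen after their values were seen. Up to 4 genes with the smallest adjusted p were named from each other list, besides 8 fixed genes. Alternatives were upper quartile factors, DESeq2 size factors, total counts, no filter, a stricter filter (1 CPM in 3 libraries and 50 counts in total), DESeq2 1.42.0, limma-voom, only the groups compared, the set number as a block, the mitochondrial-genome share as a covariate, 8 libraries, and leaving out each library in turn.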

Additional observations from a re-analysis of the deposited data

How the results depend on the processing

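With DESeq2 size factors, every class count and the direction of every named gene stayed as reported. Between the combination and DMSO, the cytosolic count of 7 was 11 with the replicate block and 3 with 8 libraries, left after removing the highest mitochondrial-genome share of each group, and 5 to 7 without each library. The mitochondrial count of 3 was 6 with the DESeq2 test (5 lower and 1 higher), 1 with only the groups compared, 7 with the replicate block (5 lower and 2 higher), 10 with the mitochondrial share covariate (6 lower and 4 higher), 1 with 8 libraries, and 0 to 2 without each library. Against 5-Ph-IAA, the cytosolic count of 2 was 1 with upper quartile factors, 5 with the DESeq2 test, 1 with only the groups compared, 8 with the block, 9 with the covariate, 0 with 8 libraries, and 0 to 4 without each library. The mitochondrial count of 2 was 1 with no filter, 1 with only the groups compared, 5 with the block, 9 with the covariate, 1 with 8 libraries, and 0 to 1 without each library. Against ATRi, the cytosolic count of 0 was 1 with no filter, the DESeq2 test, only the groups compared and the block, and 3 with the covariate. The mitochondrial count of 1 was 0 with total counts and limma-voom, 2 with upper quartile factors and the stricter filter, 3 with the DESeq2 test, 4 with the block, 7 with the covariate, and 0 without each library. For ATRi against DMSO the cytosolic count was 1 with the DESeq2 test, and for the interaction the mitochondrial count was 1, FARS2, with the covariate. The cause of these changes was not tested. Shares of all genes called under each setting are not set beside these counts. A larger count is therefore not read as particular to the synthetases. LARS2 reversed to -0.0207 with 8 libraries and ranged from -0.0567 (without DMSO set 2) to 0.479 without each library, and IARS2 reversed to 0.0833 with the covariate. AARS1, LARS1 and MARS1 passed between the combination and DMSO in all 17 alternatives, AARS1 at -2.001 to -1.61; TARS1 and YARS1 missed it only with 8 libraries (adjusted p = 0.0647 and 0.0804). Between the combination and DMSO, the replicate block added EPRS1, IARS1, VARS2 and WARS2 as lower and FARSA, RARS1, AARS2 and YARS2 as higher. No scaling moved the median of all genes by over 0.1. With 3 libraries per group, standard errors of the 35 synthetases between the combination and DMSO reached 0.40 on the log2 scale, for MARS2.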
